A study of Mus musculus with 143 samples.

Results

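The 41 genes described here drive or mark the division of cells. They were taken as a fixed list of symbols and found by matching those symbols to the Ensembl gene IDs of the deposited expression table, which holds 54232 gene IDs, and all 41 were found. By known role, 15 belong to DNA replication, 22 to mitosis and 4 are transcription regulators of the cycle. The libraries come from mouse tumours that were grown from 11 tumour cell lines under the skin of the right lower flank, so that cell line and host are both mouse. Each model has 5 tumours given muDX400, an antibody against the T-cell checkpoint receptor PD-1, 5 given the muIgG1 isotype control antibody, and 3 untreated tumours at baseline.

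Both antibodies were injected on days 11 and 15 after implantation and tumours of both arms were removed on day 19, the time point of 8 days in the labels. The day of excision of the baseline tumours is not given in the sources used here, and neither are the host strains. Each model carries a labelled class of response to PD-1 blockade. The High class holds CM3, MBT2 and MC38, the Partial class CT26, EMT6, MB49 and RENCA, and the Resistant class 4T1, B16F10, LL2 and TC1. As background, MBT2 and MB49 are bladder lines, MC38 and CT26 colon lines, EMT6 and 4T1 mammary lines, RENCA a renal line, B16F10 a melanoma line, LL2 the Lewis lung carcinoma line, and TC1 a lung epithelial line transformed with papillomavirus oncogenes. Each model is 1 cell line, so nothing separates a class or tissue from the lines that stand for it. The labels do not say that the libraries of a group came from separate mice. P-values of means over models and of slopes on class rest on the spread between models. The other p-values below rest on the spread between libraries.

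A dividing cell first copies its DNA and then separates the copies, and it switches on a separate set of genes for each task. The activators E2f1 and E2f2 act on replication genes when the retinoblastoma protein releases them, and E2f8 is an atypical E2F that represses such genes and is not held by that protein. Foxm1 and the MuvB complex act later, on mitosis genes. Among the replication members, Mcm2 to Mcm7 form the ring of the replicative helicase, Cdc6 loads it, Cdc45, Gins1 and Gins2 belong to its active form, and Pcna is the clamp that holds DNA polymerase. Rrm1 and Rrm2 are subunits of ribonucleotide reductase, Tyms is thymidylate synthase, and Uhrf1 reads half-methylated DNA behind the fork. Among the mitosis members, Cdk1 with Ccna2, Ccnb1 and Ccnb2 forms the mitotic kinase, Plk1, Aurka, Aurkb, Bub1 and Bub1b are kinases of the spindle or its checkpoint, Cenpa, Cenpe, Cenpf, Cenpp, Ndc80 and Nuf2 sit at the centromere or kinetochore, Kif11, Kif23 and Tpx2 work on spindle microtubules, Birc5 guides Aurkb, Top2a untangles chromosomes, Cdc20 triggers their separation, and Mki67 coats them and encodes the Ki-67 proliferation marker.

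The 2 tasks differ in the letters of their promoters, and 6 promoters are printed to show this. RefSeq windows on the GRCm38.p6 build, each of 300 bases from 250 before to 50 after a gene's start, matched 34 of the 41 members in 37 windows. In these windows 3 kinds of letters were searched on both strands. The E2F-type letters were TTCCCGC. They were also TTGGCGC, then TTCGCGC, and finally TTGCCGC. The letters of the cell cycle genes homology region, CHR for short, were TTTGAA. The CCAAT box was CCAAT. Matches of E2F-type letters may overlap each other. E2F-type letters stood in 10 of 14 replication windows (71.4%) and in 3 of 19 mitosis windows (15.8%), against 9.57% of all 32851 windows. CHR letters stood in 2 of 14 replication windows (14.3%) and in 13 of 19 mitosis windows (68.4%), against 17.9% of all windows. CCAAT was frequent in both, in 85.7% of replication and 78.9% of mitosis windows, against 37.4% of all. Matches describe the letters and say nothing of binding in these tumours. The windows of Mcm5, Mcm6 and Rrm1 show the replication pattern, and those of Ccnb2, Top2a and Cdk1 the mitosis pattern. They were picked after their letters were seen, at chr8:75109259-75109558 (plus strand), chr1:128359656-128359955 (minus), chr7:102441445-102441744 (plus), chr9:70421505-70421804 (minus), chr11:99024140-99024439 (minus) and chr10:69352863-69353162 (minus), in that order. Capitals mark every match of the 3 kinds on either strand, so that ATTGG is a CCAAT box and TTCAAA a CHR read from the other strand.
Mcm5: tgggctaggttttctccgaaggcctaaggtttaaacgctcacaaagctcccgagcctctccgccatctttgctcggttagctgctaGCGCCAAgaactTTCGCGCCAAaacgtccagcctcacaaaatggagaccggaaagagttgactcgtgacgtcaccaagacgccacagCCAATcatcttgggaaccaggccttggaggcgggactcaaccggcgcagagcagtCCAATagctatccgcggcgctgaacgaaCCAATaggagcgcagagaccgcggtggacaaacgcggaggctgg
Mcm6: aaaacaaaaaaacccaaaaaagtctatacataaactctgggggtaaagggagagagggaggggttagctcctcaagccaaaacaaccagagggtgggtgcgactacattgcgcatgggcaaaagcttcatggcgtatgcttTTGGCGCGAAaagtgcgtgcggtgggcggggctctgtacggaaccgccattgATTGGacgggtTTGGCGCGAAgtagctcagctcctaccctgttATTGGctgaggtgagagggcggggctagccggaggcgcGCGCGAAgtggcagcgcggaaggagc
Rrm1: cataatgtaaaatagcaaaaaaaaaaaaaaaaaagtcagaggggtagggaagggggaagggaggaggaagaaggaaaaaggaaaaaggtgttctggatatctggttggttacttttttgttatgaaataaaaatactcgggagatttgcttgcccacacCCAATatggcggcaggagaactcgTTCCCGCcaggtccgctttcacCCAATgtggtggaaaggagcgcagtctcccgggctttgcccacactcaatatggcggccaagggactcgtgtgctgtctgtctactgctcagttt
Ccnb2: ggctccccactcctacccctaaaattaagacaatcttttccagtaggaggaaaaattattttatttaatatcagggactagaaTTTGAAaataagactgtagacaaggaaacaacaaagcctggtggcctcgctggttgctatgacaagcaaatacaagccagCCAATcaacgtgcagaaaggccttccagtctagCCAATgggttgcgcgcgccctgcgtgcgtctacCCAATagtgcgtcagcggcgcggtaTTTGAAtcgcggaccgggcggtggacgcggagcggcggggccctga
Top2a: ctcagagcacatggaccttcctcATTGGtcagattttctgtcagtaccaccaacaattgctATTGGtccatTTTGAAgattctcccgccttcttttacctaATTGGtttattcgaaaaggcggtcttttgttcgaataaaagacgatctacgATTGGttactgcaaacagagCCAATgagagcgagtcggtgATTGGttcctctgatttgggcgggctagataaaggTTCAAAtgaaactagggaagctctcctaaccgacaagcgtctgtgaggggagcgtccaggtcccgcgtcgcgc
Cdk1: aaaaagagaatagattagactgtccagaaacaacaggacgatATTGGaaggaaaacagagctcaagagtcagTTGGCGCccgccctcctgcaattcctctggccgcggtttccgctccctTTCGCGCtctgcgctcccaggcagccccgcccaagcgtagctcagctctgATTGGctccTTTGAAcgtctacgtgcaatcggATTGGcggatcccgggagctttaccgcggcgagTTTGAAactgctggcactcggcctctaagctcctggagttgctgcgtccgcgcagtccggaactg
Mcm5, Mcm6 and Rrm1 have E2F-type letters and no CHR in these windows, Ccnb2 and Top2a have CHR and CCAAT letters and no E2F-type letters, and Cdk1 holds all 3 kinds.

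Expression was deposited as FPKM, mapped fragments scaled by transcript length and by the size of the library, which allows levels of different genes to be compared. From the smallest steps between values, the libraries were estimated to hold 11.7 to 51.3 M fragments (M, mega), with a median of 21.4 M. The 9 baseline libraries of RENCA, B16F10 and TC1 held 37.2 to 51.3 M and the other 134 held 11.7 to 25.7 M. Between 10992 and 13328 genes reached 1 FPKM in a library. A check of labels found melanocyte markers high in 2 models. Dct, Tyrp1, Pmel, Mlana and Tyr summed to 5357 to 7325 FPKM in CM3 isotype tumours and 8117 to 10369 FPKM in B16F10 isotype tumours, against at most 4.59 FPKM in isotype tumours of the other 9 models. The labels do not say what CM3 is. Numbers of the sample descriptions fall in blocks. Both antibody arms of a model share a block, while baseline tumours stand in another block than their isotype tumours in every model but B16F10 and RENCA. A difference between isotype and baseline therefore cannot be told apart from a difference between blocks in the other 9 models. In B16F10 and RENCA it cannot be told apart from one of depth, with 17.0 to 22.4 M fragments in isotype and 37.2 to 51.3 M in baseline libraries. Bulk tumour RNA also cannot separate fewer dividing cells from less RNA of a gene per cell.

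All 41 genes were expressed in all 11 models, and in isotype tumours most were lowest in CM3 and highest in TC1. Averaged over the 11 isotype model means, the highest replication member was Pcna at 163 FPKM and the lowest Cdc6 at 10.3 FPKM. Among mitosis members Top2a was highest at 109 FPKM and Cenpf lowest at 5.17 FPKM, and among regulators Foxm1 was highest at 36.6 FPKM and E2f2 lowest at 4.54 FPKM. CM3 had the lowest isotype mean for 34 of 41 members, 14 of them replication genes, 16 mitosis genes and all 4 regulators. TC1 had the highest mean for 24 of 41, and B16F10 for 8. At baseline CM3 was lowest for 31 of 41, while the highest means were spread over TC1 with 10, MC38 and RENCA with 7 each and B16F10 with 6. In isotype tumours RENCA had the lowest mean for 5, all mitosis genes, namely Mki67, Bub1, Kif11, Cenpe and Cenpf.

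**Figure D1:**
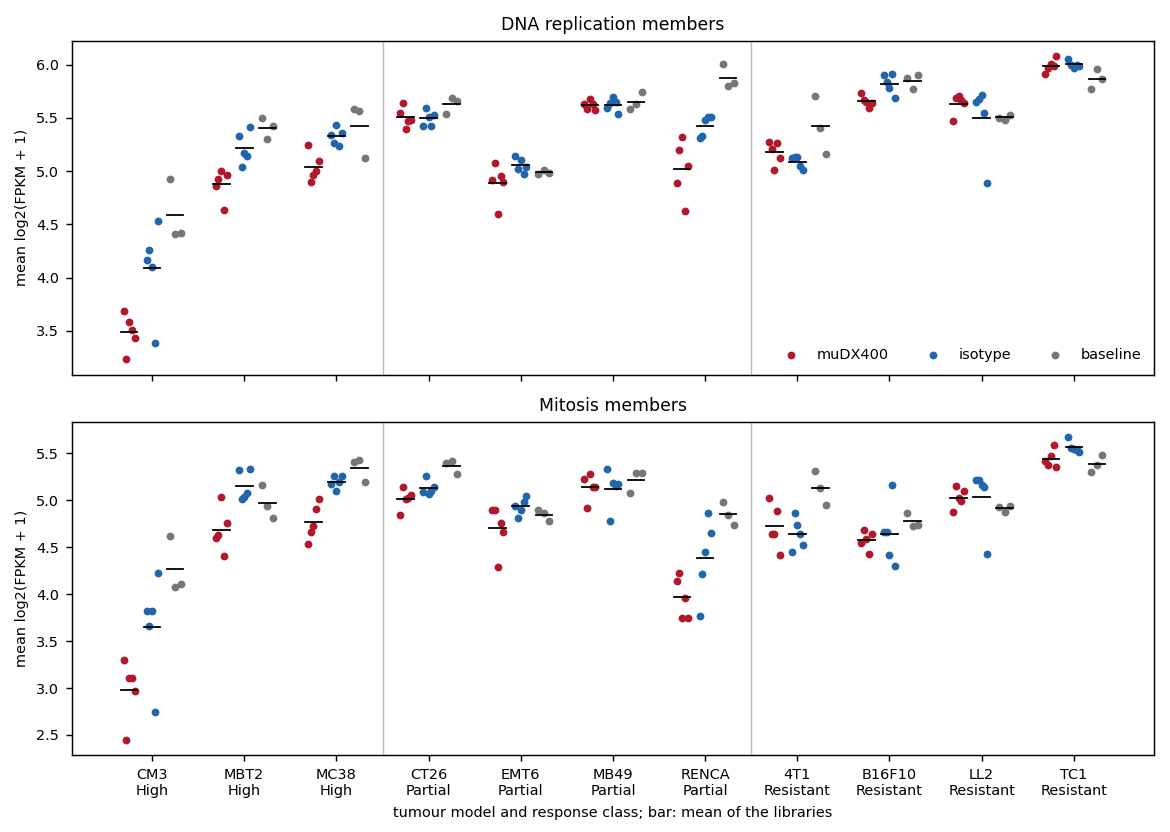
Mean log2(FPKM + 1) over the 15 DNA replication members and over the 22 mitosis members in every library, by tumour model and arm, with 1 point per library. CM3 lies lowest in both panels, with isotype means of 4.09 and 3.65, and B16F10 and RENCA lie lower among the models for mitosis than for replication.

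The member of each role whose model means spread most, by the ratio of the highest to the lowest isotype mean, was Mcm2 among replication genes, Kif23 among mitosis genes and E2f1 among regulators. Mcm2 differed 10.6-fold between its highest and lowest model, Kif23 9.46-fold and E2f1 8.03-fold. Mcm2 in isotype tumours of B16F10 was at 181, 183, 182, 161 and 215 FPKM. In TC1, the next model, its values were 70.1, 61.9, 66.6, 70.4 and 67.6 FPKM, so the B16F10 libraries stood wholly above every TC1 library. The order then ran through LL2 (56.5 ± 11.1 FPKM, SD, n = 5), CT26 (49.3 ± 4.68), MB49 (45.8 ± 4.00), MC38 (45.3 ± 4.75), RENCA (44.8 ± 3.65), EMT6 (38.1 ± 2.51), MBT2 (35.6 ± 4.13) and 4T1 (33.0 ± 3.18) to CM3 (17.4 ± 6.61). The steps from B16F10 to TC1, from RENCA to EMT6 and from 4T1 to CM3 exceeded the SD of both neighbours, and the others did not. Kif23, the kinesin of the central spindle, had 53.9, 47.5, 48.2, 49.7 and 47.8 FPKM in TC1 isotype tumours and 6.68, 2.46, 4.16, 2.81 and 10.01 FPKM in CM3 isotype tumours. E2f1 had 50.2, 47.8, 45.9, 50.0 and 45.5 FPKM in TC1 isotype tumours and 5.40, 6.78, 3.53, 6.77 and 7.36 FPKM in those of CM3. For both genes TC1 and CM3 did not overlap.

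Mki67, the gene behind the most used stain for dividing cells, ordered the models in another way than Mcm2. Its isotype mean was highest in TC1 at 48.0 ± 2.33 FPKM, followed by MBT2 at 34.1 ± 4.50 and MC38 at 30.4 ± 10.5. It was lowest in RENCA at 7.19 ± 4.33 FPKM and CM3 at 9.51 ± 4.35 (SD, n = 5 each). B16F10, highest for Mcm2, stood below all but CM3 and RENCA for Mki67, with 8.18, 21.98, 2.52, 29.9 and 10.6 FPKM in its isotype tumours. Within RENCA its isotype tumours spread from 1.57 to 11.9 FPKM, and within B16F10 from 2.52 to 29.9 FPKM. Over all libraries of the 3 arms Mki67 spanned 1.57 to 51.8 FPKM and Mcm2 spanned 9.21 to 215 FPKM.

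Replication and mitosis genes were not balanced alike in every model. A score for each role was taken as the mean log2(FPKM + 1) of its members in a library. The replication score minus the mitosis score in isotype tumours was 1.18 ± 0.26 in B16F10 and 1.04 ± 0.34 in RENCA, and lay between 0.07 in MBT2 and 0.50 in MB49 in the other 9 models. muDX400 tumours gave 1.09 in B16F10 and 1.05 in RENCA, and baseline tumours 1.08 in B16F10 and 1.02 in RENCA. TC1 baseline tumours stand in the same block of sample numbers as B16F10 and RENCA and gave 0.49. TC1 isotype tumours, outside that block and of lower depth, gave 0.44. The part of the block in these scores was not tested. The mitosis members are less rich in G and C, with a median transcript GC of 46.4%, against 49.3% in replication members and 55.6% in regulators. Of the members lowest in RENCA, Bub1, Kif11, Cenpe and Cenpf have 41.0%, 42.2%, 42.9% and 43.3%, while the value of Mki67 is not given here. With the relation to transcript GC removed in each library, a step chosen after seeing the data, the difference was 1.05 in B16F10, 0.86 in RENCA and at most 0.52 in the other models. The part of fragment composition in the rest was not tested.

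Within a model and arm, tumours high for one member were mostly high for the others. After the mean of each model and arm was removed, members were correlated with the mean of the other 40 over the 110 libraries of the antibody arms, as a description of libraries that share depth and cell content. Pearson's r was highest for Ccnb1 (0.87), Mcm4 (0.84), Ccna2 (0.84) and Top2a (0.83). It was lowest for E2f2 (-0.05), E2f1 (0.01), Gins2 (0.36) and Mcm5 (0.41). E2f1 and E2f2, known as activators of replication genes, had values near 0 while the replication members did not, which says nothing of their action. The regulators also had the highest median transcript GC of the roles, 55.6%, and its part was not tested. Foxm1, the mitosis activator, had an r of 0.84 with Bub1b. That is the value of a single pair and does not compare with those above. Pairs of replication members had a median r of 0.49 over 105 pairs, pairs of mitosis members 0.555 over 231 pairs, and mixed pairs 0.42 over 330 pairs. The closest pair was Bub1 with Kif11 at 0.97, and Plk1 with Cdc20, a mitotic kinase and the activator of chromosome separation, reached 0.92. Members with AT-rich transcripts also varied more between sister tumours, with a Spearman correlation of -0.57 between transcript GC and residual SD over the 41 members. Mki67 had a residual SD of 0.58, Cenpe of 0.53 and Bub1 of 0.48 on the log2 scale.

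The antibody arms ask whether PD-1 blockade changed these genes. All 41 members passed the filter on low values in every comparison below, differences are of mean log2(FPKM + 1), which understates changes of low genes, and calls are at an adjusted p under 0.05 over all genes tested. Only in MC38 did members pass the test. There 20 of 41 fell in muDX400 tumours, 6 of 15 replication genes, 14 of 22 mitosis genes and none of the 4 regulators, where 12.7% of the 12775 genes tested were called lower. The member median was -0.36, with -0.27 for replication and -0.41 for mitosis genes, against -0.06 over all genes. The MC38 differences had a Spearman correlation with transcript GC of 0.54 over the members and 0.02 over all genes. The part of transcript GC in them was not tested.

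**Figure D2:**
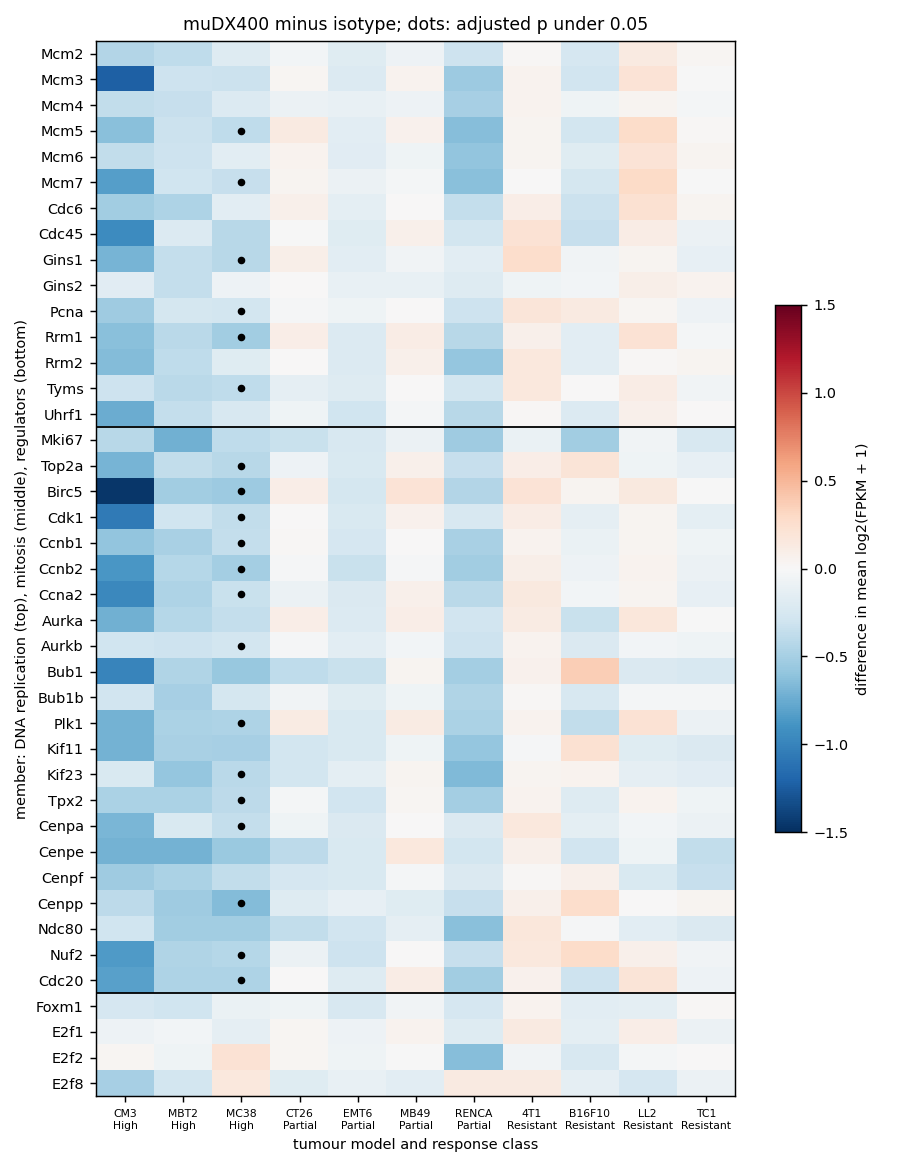
Difference in mean log2(FPKM + 1), muDX400 minus isotype, for the 41 members (rows, by role) in the 11 tumour models (columns, by response class), with dots where the adjusted p is under 0.05. MC38 alone carries dots, 20 in all, while CM3, MBT2, RENCA and EMT6 columns are below 0 for at least 40 of 41 members.

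Rrm1, the large subunit of ribonucleotide reductase, had 48.2, 38.2, 40.8, 41.1 and 47.8 FPKM in MC38 tumours given muDX400, against 67.4, 53.9, 79.6, 52.6 and 61.5 FPKM in isotype tumours. Every treated library lay below every isotype library. Its difference was -0.52 (SE 0.12, 95% interval -0.79 to -0.26, limma adjusted p = 0.0107). Among the other replication members Gins1 fell by 0.42, Tyms by 0.39, Mcm5 by 0.38 and Mcm7 by 0.35 on the log2 scale. Tyms had 31.5, 22.6, 22.5, 24.9 and 23.9 FPKM with muDX400, against 32.4, 31.6, 37.0, 28.0 and 36.0 FPKM with the isotype, so that 1 treated library reached into the isotype range. Pcna, named after its values were seen, averaged 106 ± 4.69 FPKM with muDX400 and 129 ± 11.9 FPKM with the isotype (SD, n = 5 each).

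Among mitosis genes in MC38, Cenpp, a subunit of the centromere-bound complex, had the largest fall. It stood at 5.53, 6.17, 6.60, 6.76 and 7.24 FPKM in the muDX400 tumours and at 7.36 to 12.5 FPKM in the isotype tumours, without overlap (difference -0.65, SE 0.14, limma adjusted p = 0.00658). Birc5, or survivin, averaged 49.4 ± 3.79 FPKM with muDX400 and 74.2 ± 19.0 FPKM with the isotype (difference -0.55, limma adjusted p = 0.0186). Ccnb2, one of the mitotic cyclins whose promoter is printed above, had 30.04, 23.2, 25.3, 28.6 and 28.9 FPKM with muDX400, against 40.3, 37.4, 43.3, 33.7 and 40.8 FPKM with the isotype, again without overlap (difference -0.51, SE 0.10, limma adjusted p = 0.0042). Cdc20 and Plk1 each fell by 0.46 on the log2 scale. Top2a, also named after its values were seen, averaged 149 ± 19.6 FPKM with muDX400 and 197 ± 10.3 FPKM with the isotype, a fall of 0.41 on the log2 scale.

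**Figure D3:**
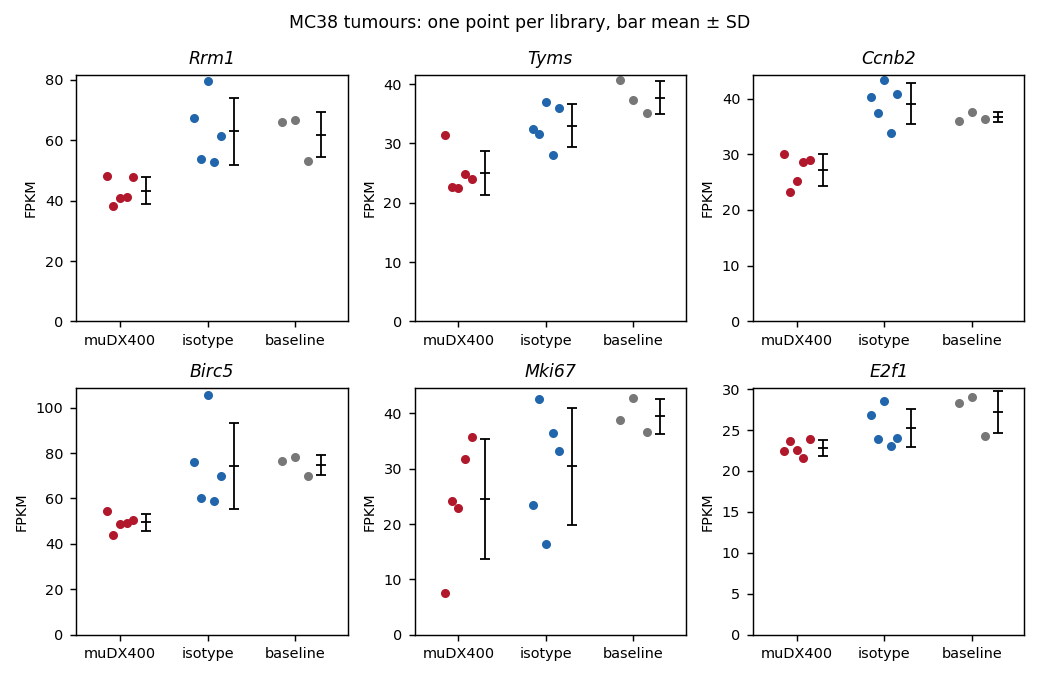
FPKM of Rrm1, Tyms, Ccnb2, Birc5, Mki67 and E2f1 in MC38 tumours, with 1 point per library and the mean ± SD of each arm. The muDX400 libraries of Rrm1, Ccnb2 and Birc5 lie below all isotype libraries, while those of Mki67 and E2f1 overlap them.

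The members that did not pass in MC38 included the most used marker. Mki67 had 7.62, 24.3, 23.0, 31.7 and 35.8 FPKM with muDX400, against 23.4, 42.6, 16.4, 36.5 and 33.3 FPKM with the isotype, and its interval ran from -1.20 to 0.43 (limma adjusted p = 0.46). Mcm2 averaged 39.6 ± 4.91 FPKM with muDX400 and 45.3 ± 4.75 FPKM with the isotype (limma adjusted p = 0.191), and E2f1 22.8 ± 0.97 FPKM with muDX400 and 25.3 ± 2.32 FPKM with the isotype (limma adjusted p = 0.218). Foxm1 differed by -0.10, E2f2 by 0.22 and E2f8 by 0.16 on the log2 scale. The number of members called lower depended on single libraries, from 9 without muDX400 replicate 2, where 5.2% of genes were called lower, to 24 without muDX400 replicate 1, where 14.6% were. It was 11 without muDX400 replicate 3 or isotype replicate 1 and 12 without muDX400 replicate 4 or isotype replicate 5. Shares of all genes are not given for these last fits. Top2a, Ccna2, Ccnb1, Ccnb2, Rrm1, Tpx2, Cenpa, Cenpp and Nuf2 were called in all 10 fits that left out a library.

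Other genes of the cycle were also counted in MC38. Of 39 further mitosis genes 22 fell and of 30 further replication genes 14 fell, where 12.7% of the 12775 genes tested were called lower. Of 18 G1 cyclins, kinases and pocket proteins 4 fell, and 1, Rbl2, rose by 0.43. Cks2, a binding partner of mitotic kinases, fell by 0.77 (limma adjusted p = 0.0027), Kif15 by 0.72, Ncapg by 0.69 and Cks1b by 0.56 on the log2 scale. Myc, a driver of growth, fell by 0.56 (limma adjusted p = 0.038), and the CDK inhibitor Cdkn2b by 0.75. Ccnd1 differed by -0.25, Cdkn1a by 0.07 and Cdkn2a by 0.26 without passing. Markers of other cells moved too, given here without the share of all genes called higher in MC38. All 10 T-cell markers rose, their sum lying at 70.9 to 232 FPKM with muDX400 and 11.9 to 28.7 FPKM with the isotype. All 8 macrophage markers rose as well, their sum lying at 1550 to 3200 FPKM with muDX400 and 817 to 1301 FPKM with the isotype, and so did all 5 endothelial markers. The part of these cells in the fall of the members was not tested.

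In CM3, MBT2 and RENCA nearly all members lay below 0 and none passed. In MBT2 the difference was below 0 for 41 of 41 members with a median of -0.41, where 0% of 12541 genes passed, while 37 members and 3597 genes had an unadjusted p under 0.05. Mki67 had 19.8, 17.7, 34.6, 14.8 and 18.2 FPKM with muDX400, against 40.5, 32.1, 31.8, 29.3 and 36.9 FPKM with the isotype (difference -0.72, limma adjusted p = 0.0553). Replicate 3 with muDX400 lay inside the isotype range and the other 4 lay below it. Without that library 32 members passed, all lower, where 10.3% of 12467 genes were called lower, and without muDX400 replicate 5 there were 13, where 1.54% of 12442 genes were. Rrm1 had 30.9, 30.6, 32.8, 26.7 and 31.0 FPKM with muDX400, against 41.4, 37.0, 37.9, 40.0 and 47.6 FPKM with the isotype (difference -0.41, limma adjusted p = 0.051). Tpx2, a factor of spindle assembly, differed by -0.47 (limma adjusted p = 0.051), and neither gene overlapped between arms. Foxm1 differed by -0.30, Mcm2 by -0.39 and E2f1 by -0.04. T-cell markers summed to 121 to 243 FPKM with muDX400 and 93.4 to 118 FPKM with the isotype in MBT2, and their part was not tested.

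In CM3 the members had the lowest median difference of any model, -0.63 with 40 of 41 below 0, against 0.13 over all genes. None passed, as 0% of 12945 genes did, while 24 members and 3441 genes had an unadjusted p under 0.05. Cdc45 had 4.45, 2.69, 3.25, 3.55 and 2.85 FPKM with muDX400, against 6.45, 9.39, 9.28, 3.99 and 9.05 FPKM with the isotype (difference -0.95, limma adjusted p = 0.179). Cdk1 had 25.7, 14.9, 21.6, 22.2 and 18.0 FPKM with muDX400, against 37.8, 56.6, 69.0, 18.6 and 52.8 FPKM with the isotype (difference -1.06, limma adjusted p = 0.179). In both genes isotype replicate 4 lay among the treated tumours while the other isotype libraries lay above all of them. That library also had a T-cell marker sum of 113 FPKM, where the 5 treated tumours had 103 to 119 FPKM and the other isotype tumours 20.99 to 38.9 FPKM. Its macrophage marker sum was 1782 FPKM, where the treated tumours had 1017 to 1447 FPKM and the other isotype tumours 542 to 757 FPKM. Without it 30 of 41 members were called lower, where 11.3% of 12789 genes were, and the part of these cells in the difference was not tested. E2f8 differed by -0.50, Mcm2 by -0.44, Mki67 by -0.42 and E2f1 by -0.07.

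In RENCA 40 of 41 members lay below 0 with a median of -0.41, and none passed, where 2.57% of 12664 genes did. Mcm6 had 50.1, 56.8, 52.5, 37.9 and 58.1 FPKM with muDX400, against 81.4, 58.8, 79.9, 79.7 and 85.3 FPKM with the isotype, a complete but narrow separation (difference -0.59, limma adjusted p = 0.0664). Ccnb2 had 28.5, 31.5, 26.9, 22.1 and 27.0 FPKM with muDX400, against 34.2, 34.7, 41.9, 45.5 and 40.5 FPKM with the isotype (difference -0.52, limma adjusted p = 0.068). E2f2 differed by -0.64, Mki67 by -0.53, Mcm2 by -0.31 and E2f1 by -0.20. Pttg1, or securin, was the one further cycle gene that passed and fell by 0.67 (limma adjusted p = 0.032). Neutrophil markers summed to 80.9 to 351 FPKM with muDX400 and 27.0 to 91.0 FPKM with the isotype, with 2 of 5 rising, and 3 of 5 endothelial markers rose. The part of these cells was not tested.

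The other 7 models gave small differences and no called member. In EMT6 all 41 were below 0 with a median of -0.21 and a lowest adjusted p of 0.907, where 0% of 12695 genes passed. Its member with the lowest p was Uhrf1 (-0.29) for replication, Nuf2 (-0.31) for mitosis and Foxm1 (-0.23) for the regulators, and Mki67 differed by -0.24, Mcm2 by -0.18 and E2f1 by -0.08. In B16F10, with 0% of 11446 genes called, the median was -0.14, Mcm3 differed by -0.28, Aurka by -0.33, E2f2 by -0.24, Mki67 by -0.52, Mcm2 by -0.25 and E2f1 by -0.14. Differences in B16F10 went with transcript GC, with a Spearman correlation of -0.65 over all genes. In the other models this correlation ran from -0.09 in CM3 to 0.40 in CT26. In CT26, with 0.339% of 12094 genes called, the median was -0.01, Mcm5 differed by 0.14, Kif23 by -0.27, E2f8 by -0.18, Mki67 by -0.34, Mcm2 by -0.05 and E2f1 by 0.03. In MB49, with 0% of 12412 genes called, the median was 0.00, Rrm1 differed by 0.12, Birc5 by 0.20, E2f8 by -0.16, Mki67 by -0.09, Mcm2 by -0.08 and E2f1 by 0.05.

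In 4T1, with 0% of 12854 genes called, 37 of 41 members were above 0 and the median was 0.07, with Pcna at 0.18, Birc5 at 0.20, E2f1 at 0.14, Mki67 at -0.10 and Mcm2 at 0.02. In LL2, with 0% of 11904 genes called, the median was 0.04, with Mcm7 at 0.28, Cdc20 at 0.20, E2f8 at -0.25, Mki67 at -0.05, Mcm2 at 0.13 and E2f1 at 0.10. Isotype replicate 5 of LL2 was far below the other isotype libraries of that model for many members, with Mki67 at 8.97 FPKM, against 26.2 to 29.7 FPKM in the other 4. Without it the LL2 median was -0.09, Mki67 differed by -0.36, Mcm7 by 0.16, Cdc20 by 0.13, Mcm2 by -0.01 and E2f1 by 0.02, and 0% of 11845 genes passed. In TC1, with 0.0802% of 12470 genes called, the median was -0.06, with Gins1 at -0.12, Cenpf at -0.34, E2f1 at -0.09, Mki67 at -0.24 and Mcm2 at 0.03. Differences between the 11 models in the antibody effect were tested directly for each gene with a limma F test, added after the data were seen. It passed for 21 of 41 members, 9 of them replication and 11 mitosis genes, where 32.4% of the 16187 genes tested passed. Mcm3 (adjusted p = 5.8e-06) and Birc5 (adjusted p = 3.9e-05) led their roles, while Mki67 did not pass (adjusted p = 0.979).

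With the model as the replicate, Mki67 was the one member, and the one gene of 13658, that was lower with muDX400 over the 11 models (0.00732% of genes called lower). Its mean difference was -0.33 (SE 0.06, 95% interval -0.46 to -0.20, limma adjusted p = 0.048). It was below 0 in 11 of 11 models, from -0.72 in MBT2 to -0.05 in LL2, and the LL2 value was -0.36 without isotype replicate 5 of that model. In no model did every treated library lie below every isotype library. The call was close to the threshold, with an adjusted p of 0.035 to 0.298 over 15 other settings and 2 of the 15 past it. Mcm2 averaged -0.16 (limma adjusted p = 0.168) and E2f1 -0.04 (limma adjusted p = 0.61). All 41 mean differences were below 0 with a median of -0.18, against -0.01 over all genes.

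The antibody effect was then regressed on response class, with Resistant set to 0, Partial to 1 and High to 2. The slope per step passed for 6 of 41 members, all lower at a higher class, where 0.696% of 13658 genes were called lower. Of the mitosis genes, Birc5 had a slope of -0.46 (limma adjusted p = 0.0488), Nuf2 -0.34 (0.0336), Cenpp -0.31 (0.0269), Ccnb2 -0.30 (0.0460) and Top2a -0.25 (0.0482). Tyms, the one replication gene, had -0.21 (limma adjusted p = 0.0404). Mcm2 had -0.16 and Mki67 -0.14, which did not pass, and E2f1 -0.04. T-cell markers had a median slope of 0.61, with 7 of 10 passing as higher, and their part was not tested. The share of all genes with a higher slope called is not given beside this marker count. The count changed when single models were left out. It was 0 without 4T1, B16F10, LL2, MC38 or TC1, 1 without CM3 and 2 without CT26 or EMT6. Shares of all genes are not given for these fits, so their counts do not show a change particular to the members. The count was 12 without MBT2 and 14 without MB49, with 3.44% of genes called lower without MBT2 and 1.58% without MB49.

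Levels without the antibody were also set against class, and no member passed. In isotype tumours 0 of 41 members passed the slope test with limma, as did 0% of 13589 genes, while 5 members and 642 genes had an unadjusted p under 0.05. The lowest p of each role belonged to Mcm6 (-0.66), Cdk1 (-0.38) and E2f8 (-0.48), with Mcm2 at -0.59, Mki67 at -0.06 and E2f1 at -0.25. In baseline tumours 0 of 41 members passed, as did 0% of 14009 genes, while 4 members and 431 genes had an unadjusted p under 0.05. The same 3 genes had the lowest p, with slopes of -0.47 for Mcm6, -0.34 for Cdk1 and -0.23 for E2f8, and Mcm2 had -0.36, Mki67 -0.04 and E2f1 -0.14. A slope that does not pass over 11 models does not show equal levels.

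The third arm asks what differs between isotype tumours at day 19 and untreated tumours at baseline. These comparisons use the same isotype libraries as those above. Over the 11 models 3 members fell, Tyms, Gins2 and Cenpf, about as often as all genes did, where 5.38% of 13817 genes were called lower. The mean difference of Tyms, the enzyme that makes thymidylate for DNA, was -0.43 (SE 0.06, 95% interval -0.56 to -0.30, limma adjusted p = 0.0004). It was below 0 in 11 of 11 models, from -0.88 in CM3 to -0.19 in MC38, and in 8 of 11 every isotype library lay below every baseline library. Gins2, a subunit of the active helicase, averaged -0.38 (SE 0.06, limma adjusted p = 0.0011), was below 0 in 11 of 11 models, from -0.73 in CT26 to -0.04 in CM3, and separated fully in 6. Both passed in 15 of 15 other settings. Cenpf averaged -0.51 (limma adjusted p = 0.0377), was below 0 in 9 of 11 and passed in 5 of 15 other settings.

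**Figure D4:**
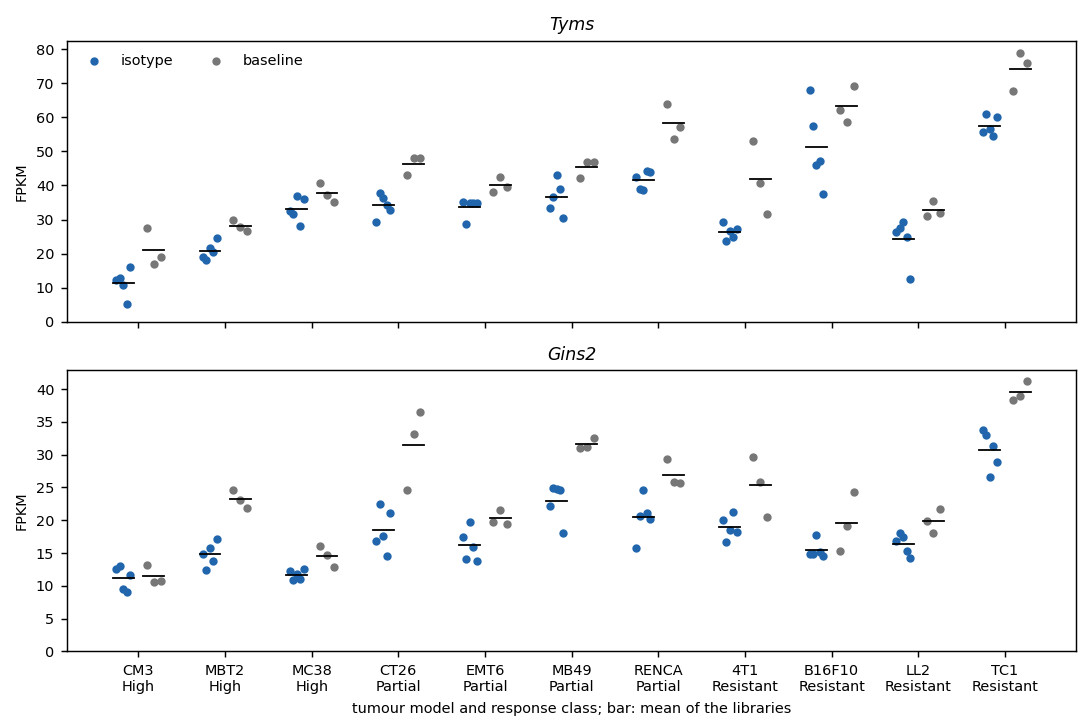
FPKM of Tyms (top) and Gins2 (bottom) in isotype and baseline libraries of the 11 tumour models, with 1 point per library and bars for the mean. Isotype means lie below baseline means in all 11 models for both genes, by 0.43 and 0.38 on average on the log2(FPKM + 1) scale.

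Mcm2 averaged -0.08, Mki67 -0.22 (limma adjusted p = 0.518) and E2f1 -0.16 (limma adjusted p = 0.224). The member median was -0.12, against -0.06 over all genes. In the 2 models whose arms share a block but differ in depth as given above, Tyms differed by -0.47 in RENCA and -0.32 in B16F10, and Gins2 by -0.39 in RENCA and -0.31 in B16F10. RENCA isotype tumours had 42.5, 39.0, 38.6, 44.2 and 43.8 FPKM of Tyms, against 63.8, 53.8 and 57.1 FPKM at baseline, without overlap. For Gins2 they had 15.8, 20.6, 24.6, 21.1 and 20.2 FPKM, against 29.3, 25.9 and 25.7 FPKM at baseline, also apart. B16F10 isotype tumours had 68.1, 57.4, 45.9, 47.3 and 37.6 FPKM of Tyms, against 62.1, 58.7 and 69.2 FPKM at baseline, which overlap. Differences over all genes had a Spearman correlation with transcript GC of 0.62 in B16F10 and 0.28 in RENCA, and its part was not tested.

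**Figure D5:**
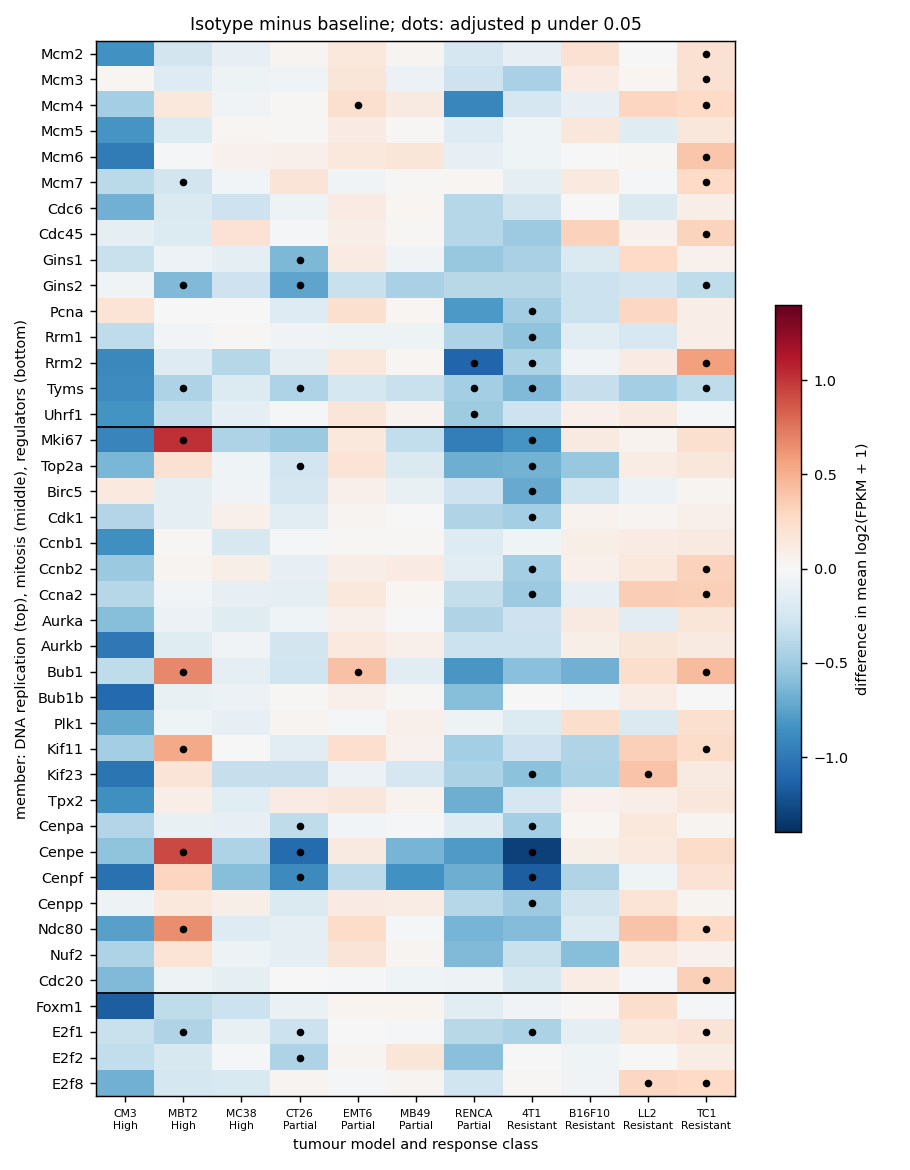
Difference in mean log2(FPKM + 1), isotype minus baseline, for the 41 members (rows, by role) in the 11 tumour models (columns, by response class), with dots where the adjusted p is under 0.05. TC1 and MBT2 hold members of both signs past the test, 4T1, CT26 and RENCA only lower ones, and the Tyms and Gins2 rows are below 0 throughout.

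The 4T1 model had the most members lower, 16 of 41, of which 4 were replication genes, 11 mitosis genes and 1 a regulator, where 10.7% of 13166 genes were called lower. Cenpe, the kinesin that carries chromosomes to the spindle equator, had 4.73, 10.6, 7.94, 8.78 and 5.90 FPKM in isotype tumours, against 24.2, 19.6 and 15.9 FPKM at baseline (difference -1.31, limma adjusted p = 0.00447). The arms lay apart. Cenpf fell by 1.16, Mki67 by 0.83, Birc5 by 0.71 and Top2a by 0.66 on the log2 scale. Tyms fell by 0.62, Rrm1 by 0.56, Pcna by 0.48, Rrm2 by 0.44 and E2f1 by 0.45, while Mcm2 differed by -0.12. Differences in 4T1 had a Spearman correlation with transcript GC of 0.58 over the members and 0.07 over all genes. Kif15 fell by 1.07, Mcm10 by 0.82 and Gmnn, the inhibitor of helicase loading, by 0.78. All 5 neutrophil markers rose with a median of 2.65, as did 8 of the 9 T-cell markers tested, and their part was not tested. The share of all genes called higher is not given beside these marker counts. The count was 3 without baseline replicate 1 or 2, 27 without baseline replicate 3, 9 without isotype replicate 4 or 5 and 10 without isotype replicate 1, and the share of all genes called lower ran from 3.21% without baseline replicate 2 to 21.5% without baseline replicate 3.

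In CT26 members fell about as often as all genes did. The 9 that fell were 3 replication genes, 4 mitosis genes and 2 regulators, where 19.0% of 12614 genes were called lower. Gins2 had 16.8, 22.4, 17.6, 14.5 and 21.1 FPKM in isotype tumours, against 24.7, 33.1 and 36.5 FPKM at baseline (difference -0.73, limma adjusted p = 0.0108). Gins1 fell by 0.63 and Tyms by 0.43. Cenpe had 9.76, 10.3, 7.03, 9.71 and 6.43 FPKM in isotype tumours, against 18.5, 20.6 and 18.2 FPKM at baseline (difference -1.08, limma adjusted p = 0.00149), and Cenpf fell by 0.90, Cenpa by 0.35, Top2a by 0.27, E2f2 by 0.43 and E2f1 by 0.30. Mki67 differed by -0.52 (limma adjusted p = 0.0853) and Mcm2 by 0.04. The CDK inhibitor Cdkn1a rose by 0.60 (limma adjusted p = 0.025). The count was 4 without baseline replicate 2, 5 without isotype replicate 1, and 1 higher with 15 lower without baseline replicate 3, and the share of all genes called lower ran from 10.9% without baseline replicate 2 to 22.3% without baseline replicate 3.

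In RENCA members fell about as often as all genes did. The 3 that fell were all replication genes, where 8.25% of 13317 genes were called lower. Rrm2, the small subunit of ribonucleotide reductase, had 51.9, 58.1, 77.2, 78.3 and 73.5 FPKM in isotype tumours, against 176, 134 and 132 FPKM at baseline (difference -1.12, limma adjusted p = 0.00547). Every isotype library lay far below every baseline library. Uhrf1 fell by 0.50 and Tyms by 0.47. The member median was -0.42, Mki67 differed by -0.97 (limma adjusted p = 0.249), Mcm2 by -0.23 and E2f1 by -0.39. Differences in RENCA had a Spearman correlation with transcript GC of 0.57 over the members and 0.28 over all genes. The count was 8 without isotype replicate 1, 0 without baseline replicate 1 and 1 without isotype replicate 3 or 5 or baseline replicate 2 or 3, and the share of all genes called lower ran from 1.47% without baseline replicate 1 to 12.9% without isotype replicate 1.

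In MBT2 members passed in both directions, about as often as all genes did. Of the 41 members 5 rose, all mitosis genes, where 10.7% of 12779 genes were called higher. Those that fell were 3 replication genes and E2f1, where 11.8% were called lower. Mki67 had 40.5, 32.1, 31.8, 29.3 and 36.9 FPKM in isotype tumours, against 21.3, 19.9 and 9.91 FPKM at baseline (difference 1.02, limma adjusted p = 0.013). Cenpe rose by 0.93, Bub1 by 0.67, Ndc80 by 0.65 and Kif11 by 0.53. Gins2 had 14.9, 12.5, 15.8, 13.8 and 17.1 FPKM in isotype tumours, against 24.6, 23.1 and 21.9 FPKM at baseline (difference -0.62, limma adjusted p = 0.0041). Tyms fell by 0.43, Mcm7 by 0.26 and E2f1 by 0.42, and Mcm2 differed by -0.26. In this comparison differences went with transcript GC, with a Spearman correlation of -0.79 over the members and -0.57 over all genes. With that relation removed 2 members were higher and 2 lower, where 5.14% and 5.95% of 12569 genes were. The condensin genes Smc4 and Smc2 rose by 1.41 and 1.02.

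TC1 had the most members higher, 15 of 41, with 7 replication genes, 6 mitosis genes and 2 regulators, where 9.92% of 13068 genes were called higher. Rrm2 had 125, 107, 114, 111 and 103 FPKM in isotype tumours, against 65.2, 85.0 and 76.4 FPKM at baseline (difference 0.57, limma adjusted p = 0.00083). Mcm6 had 149, 151, 144, 150 and 141 FPKM in isotype tumours, against 103, 119 and 113 FPKM at baseline (difference 0.39, limma adjusted p = 0.00075). Both separated without overlap. Cdc45 rose by 0.31, Mcm2 by 0.21, Bub1 by 0.45, Ccna2 by 0.33, Cdc20 by 0.33, Ccnb2 by 0.32, Ndc80 by 0.28, E2f8 by 0.28 and E2f1 by 0.18. Against them Gins2 and Tyms each fell by 0.36, the 2 members lower where 27.1% of genes were called lower. Mki67 differed by 0.22 (limma adjusted p = 0.0597). Of the CDK inhibitors 5 of 7 rose, with Cdkn2b at 1.23 and Cdkn2a at 0.76, and Ccnd2 fell by 0.90. All 8 macrophage, all 5 endothelial and the 5 tested T-cell markers fell, and their part was not tested. Without baseline replicate 1 the count was 7 higher and 2 lower, where 6.11% and 19.4% of genes were.

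In EMT6 2 members rose, about as often as all genes did, where 2.92% of 12867 genes were called higher. Mcm4 had 32.7, 31.0, 31.8, 29.4 and 31.5 FPKM in isotype tumours, against 26.7, 25.9 and 27.3 FPKM at baseline (difference 0.22, limma adjusted p = 0.0255), and Bub1 23.4, 19.9, 23.2, 24.5 and 25.8 FPKM, against 17.7, 16.7 and 17.3 FPKM at baseline (difference 0.41, limma adjusted p = 0.0149). With the replicate number as a block the count was 4 higher and 1 lower, where 10.6% and 11.1% of genes were. Mki67 and Mcm2 each differed by 0.15 and E2f1 by 0.01. In LL2 2 members rose, Kif23 by 0.40 (limma adjusted p = 0.0418) and E2f8 by 0.29 (limma adjusted p = 0.0181). Of all 12423 genes 11.3% were called higher, a larger share than among the members. Isotype replicate 5 of LL2, low for Mki67 as given above, was also below the 20.4 to 22.8 FPKM of the baseline tumours. Without it 27 members were higher, where 26.5% of 12361 genes were, and 2 lower, where 24.6% were. Mki67 differed by 0.05, Mcm2 by 0.01 and E2f1 by 0.15 with it, and Cdkn1a fell by 0.85 and Ccnd1 by 0.37. T-cell markers summed to 1.06 to 3.74 FPKM in LL2 isotype tumours and 18.5 to 24.8 FPKM at baseline. B-cell markers summed to 0.203 to 0.647 FPKM and 23.1 to 31.5 FPKM, and macrophage markers to 338 to 596 FPKM and 624 to 710 FPKM. Neutrophil and endothelial marker sums overlapped between these arms. The part of these cells was not tested.

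No member passed in the other 4 models. In CM3, with 0.374% of 13091 genes called, the median was -0.59, with Mcm2 at -0.84, Cenpf at -1.05, Foxm1 at -1.15, Mki67 at -0.92 and E2f1 at -0.32. In MC38, with 3.25% of 12968 genes called, Gins2 differed by -0.29, Cenpf by -0.60, Foxm1 by -0.30, Mki67 by -0.44, Mcm2 by -0.12 and E2f1 by -0.10, while Cdkn2a fell by 1.03. In MB49, with 1.89% of 12720 genes called, Gins2 differed by -0.46, Cenpf by -0.84, E2f2 by 0.17, Mki67 by -0.34, Mcm2 by 0.04 and E2f1 by -0.02. In B16F10, with 0.933% of 11901 genes called, Cdc45 differed by 0.32, Birc5 by -0.28, E2f1 by -0.12, Mki67 by 0.13 and Mcm2 by 0.21. These B16F10 differences had a Spearman correlation with transcript GC of 0.57 over the members and 0.62 over all genes. The part of transcript GC in them was not tested. The difference itself varied between models by the limma F test, added after the data were seen, in 24 of 41 members, where 46.9% of 16879 genes passed. Rrm2 (adjusted p = 1.2e-05) and Bub1b (adjusted p = 0.00025) led their roles.

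Among the 4 upstream genes given by rule, Cdkn2a spread more widely between models than any member. Cdkn2a, which encodes inhibitors that act through the retinoblastoma protein and p53, stood at 337 ± 21.7 FPKM in TC1 isotype tumours, 50.2 ± 3.37 FPKM in MBT2 and 22.8 ± 6.19 FPKM in CM3 (SD, n = 5 each). It was at 4.96 FPKM in EMT6, 1.85 FPKM in MC38, 1.01 FPKM in RENCA and at most 0.543 FPKM in the other 5 models. TC1, highest for this inhibitor, was also highest for 24 of the 41 members. Cdkn1a, the p21 inhibitor, was highest in TC1 at 332 FPKM and lowest in 4T1 at 26.4 FPKM. Ccnd1, the G1 cyclin, was highest in MC38 at 598 FPKM and lowest in CM3 at 23.7 FPKM. Myc was highest in LL2 at 269 FPKM and lowest in B16F10 at 26.5 FPKM.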

How the data were processed

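Total RNA from the tumours was depleted of ribosomal RNA, made into stranded libraries and sequenced as paired 50-base reads on an Illumina HiSeq, per the labels. The authors deposited FPKM, which are not counts, in a table of 54232 gene IDs, and the aligner, quantifier, build, annotation and treatment of reads shared with pseudogenes were not given in the sources used here. Each gene was tested on log2(FPKM + 1) in R 4.3.3 by limma 3.58.1 (trended prior variance, both sides), with Benjamini-Hochberg adjustment over all genes tested and a threshold of 0.05. Genes needed at least 1 FPKM in 5 of 10 libraries between the antibody arms and in 3 of 8 between isotype and baseline. Each model had its own fit, and for means over models and slopes on class each model counted once. Depth was estimated from the smallest FPKM steps of genes with 1 transcript. Scripts were tested on simulated data. Tables were made with Python 3.11.15, pandas 2.3.3 and scipy 1.17.1.

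The members, their roles and the further gene lists were chosen with earlier results of these data known. Mki67, Mcm2 and E2f1 are given in every comparison. Of the members past the threshold, up to 5 with the largest difference are named for each of replication and mitosis, with all regulators, and the member of each role with the lowest p where none passed. Replicate numbers were checked as pairs by the correlation of deviations. Every pair exceeded 0.1 only for EMT6 isotype and baseline tumours, with a correlation of 0.16 to 0.31 over 3 pairs. Alternatives were a pseudocount of 0.1, no filter, median-ratio scaling, a replicate block, a spread shared over models and leaving out each library or model. Removing the relation to transcript GC and the F tests between models were chosen after seeing the data.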

Additional observations from a re-analysis of the deposited data

Results flagged for a closer look

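The 22 groups of 5 libraries were each examined for 10 scores and genes, which vary together, and in 16 of these 220 checks a library's gap to the nearest other library exceeded Dixon's 95% limit. Chance gives about 1 in 20 for independent checks, which these are not. Isotype replicate 5 of LL2 accounts for 6 of these 16. It had a replication score of 4.89, with 5.55 to 5.72 in the other 4, a mitosis score of 4.43 (5.15 to 5.22), Mki67 at 8.97 FPKM (26.2 to 29.7), Top2a at 61.9 FPKM (132 to 139), Rrm1 at 30.9 FPKM (46.1 to 51.1) and Tyms at 12.5 FPKM (24.9 to 29.3).

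In MBT2, muDX400 replicate 3 had Mki67 at 34.6 FPKM (14.8 to 19.8 in the others), and muDX400 replicate 4 had Tyms at 10.4 FPKM (16.1 to 18.3) and Gins2 at 9.10 FPKM (11.6 to 12.4). In CM3, muDX400 replicate 2 had Mki67 at 2.95 FPKM (7.02 to 8.36). In RENCA, muDX400 replicate 3 had E2f1 at 32.2 FPKM (14.7 to 19.7). In MC38, muDX400 replicate 1 had Tyms at 31.5 FPKM (22.5 to 24.9). EMT6 isotype replicate 2 had Tyms at 28.8 FPKM (34.9 to 35.1), B16F10 isotype replicate 3 had Gins2 at 17.8 FPKM (14.6 to 15.1), MB49 muDX400 replicate 2 had Gins2 at 24.6 FPKM (19.8 to 21.01), and TC1 isotype replicate 1 had a mitosis score of 5.67 (5.52 to 5.56).

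Effects also differed between groups by a test of the difference itself. The antibody effect differed between models for 21 of 41 members, where 32.4% of all genes tested passed, and the difference between isotype and baseline for 24 of 41, where 46.9% passed, by limma's F test. The antibody effect had a slope on response class for 6 of 41 members, where 0.696% of genes were called lower.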

How the results depend on the processing

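No called member changed its sign under any alternative run. Counts of members past the threshold, higher and lower together, moved by over 1.5 times as follows, and the cause was not tested. Shares of all genes are not given beside these counts, which therefore do not show a change particular to the members. For muDX400 against isotype, a spread shared over models gave 29 in CM3, 3 in MBT2 and 16 in RENCA, where each had 0, and removal of the GC relation gave 12 in MBT2 and 1 in RENCA. For isotype against baseline, the replicate block gave 2 in 4T1, 2 in CT26, 29 in LL2, 15 in MBT2 and 1 in RENCA. In these models not every pair of same-numbered libraries exceeded the correlation of 0.1. The block gave 5 in EMT6, where every pair did, though the labels do not say that numbers pair libraries. The shared spread gave 9 in 4T1, 23 in CM3, 5 in CT26, 0 in EMT6, 0 in LL2, 1 in MB49, 2 in MBT2, 15 in RENCA and 2 in TC1. No filter gave 7 in 4T1, 1 in LL2 and 4 in MBT2. Median-ratio scaling gave 4 in LL2 and 1 in RENCA. Removal of the GC relation gave 1 in EMT6, 4 in MBT2, 5 in RENCA and 32 in TC1. Over models, the mean antibody effect had 0 members with no filter, with median-ratio scaling or with the GC relation removed. Its slope on class had 0 with a pseudocount of 0.1 or no filter, 3 with median-ratio scaling and 2 with the GC relation removed.

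Leaving out 1 library gave, for muDX400 against isotype, 0 to 30 members in CM3, 0 to 1 in CT26, 0 to 32 in MBT2, 9 to 24 in MC38 and 0 to 3 in RENCA. For isotype against baseline it gave 3 to 27 in 4T1, 4 to 16 in CT26, 0 to 4 in EMT6, 0 to 29 in LL2, 4 to 9 in MBT2, 0 to 1 in MC38, 0 to 8 in RENCA and 9 to 17 in TC1. Leaving out 1 model gave 0 to 3 for the mean antibody effect, with 3 without B16F10, and 0 to 14 for its slope. These leave-out counts also join both directions, stand without shares of all genes and show no change particular to the members. The pseudocount of 1 damps differences of members with low FPKM, and the effect of depth on them was not tested.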
